A study of Mus musculus with 6 samples.

Results

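The zinc finger genes with symbols from *Zfp600* to *Zfp999* were followed in RNA-Seq of mouse tibias with and without *Atrx* in the osteoblast lineage. Members were the protein-coding genes of that symbol range whose raw counts summed to 60 or more over the 6 libraries. This rule gave 145 genes of the 171 protein-coding *Zfp600* to *Zfp999* genes in the files, which list 55401 gene identifiers in all. The members were thus chosen by their summed counts in these libraries, without regard to genotype, and their levels are given as a description.

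The Atrx-cKO group was *Osterix-Cre; Atrx* f/y, and the control group was *Atrx* f/y without the transgene. Each genotype gave 3 tibias, with 1 polyadenylated RNA library per tibia, from male mice 8 weeks old. All 6 mice carried the floxed *Atrx* allele on their single X chromosome. *Osterix-Cre* is a tetracycline-regulated transgene (Sp7-tTA, tetO-EGFP/cre) driven by the *Sp7* promoter in osteoblast precursors, and doxycycline held Cre off until 3 weeks of age. The transgene was present in every Atrx-cKO mouse and in no control, so its presence and the loss of *Atrx* cannot be told apart in these libraries. A tibia also holds marrow, cartilage, vessels and attached muscle, whose RNA is in these libraries too. In such a bulk sample, fewer cells of a type and less RNA per cell cannot be told apart. The labels give no animal identities, and p-values measure the spread between these 6 libraries.

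Most genes of this range encode C2H2 zinc finger proteins, in which each finger holds a zinc ion by 2 cysteines and 2 histidines and reads a few bases of DNA. Many also carry a KRAB domain at the amino end, which binds the corepressor TRIM28. TRIM28 in turn brings SETDB1, which writes histone H3 lysine 9 trimethylation (H3K9me3), and HP1 proteins, and many targets of this pathway are retrotransposons. The genes lie in clusters that grew by duplication, and their last exons, which hold the repeated fingers, carry H3K9me3 themselves. In other cell types ATRX, a chromatin remodeler that reads H3K9me3 and deposits histone H3.3 with DAXX, has been found at those last exons, which is why this gene family is of interest in an *Atrx* knockout.

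The fingers repeat within and between genes, and a finger of each of 5 members from the distal end of chromosome 4 is shown because these genes carry later results and their likeness bears on how reads are assigned. Each line is the 84 bases of the coding sequence in the last exon that start at the first cysteine of a finger and run through the linker, read 5′ to 3′ on the plus strand of GRCm38 with the GENCODE M21 annotation. Capitals mark the codons of the 2 cysteines and the 2 histidines.

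Zfp990: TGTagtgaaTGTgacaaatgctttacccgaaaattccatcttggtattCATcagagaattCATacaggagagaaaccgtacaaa
Zfp992: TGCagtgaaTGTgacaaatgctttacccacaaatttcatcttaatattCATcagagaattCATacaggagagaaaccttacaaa
Zfp993: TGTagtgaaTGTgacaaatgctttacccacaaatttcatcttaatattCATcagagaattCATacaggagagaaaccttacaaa
Zfp991: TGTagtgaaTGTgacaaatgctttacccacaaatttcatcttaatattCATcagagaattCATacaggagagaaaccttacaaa
Zfp985: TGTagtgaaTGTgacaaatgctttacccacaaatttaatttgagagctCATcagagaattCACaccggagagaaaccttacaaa

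They lie at chr4:145537325-145537408 (*Zfp990*), chr4:146466547-146466630 (*Zfp992*), chr4:146657944-146658027 (*Zfp993*), chr4:147178891-147178974 (*Zfp991*) and chr4:147583646-147583729 (*Zfp985*). The stretches of *Zfp991* and *Zfp993* were identical over 84 of 84 bases, and *Zfp992* matched both at 83. *Zfp990* matched *Zfp991* at 78 bases and *Zfp985* matched it at 75. Over the whole exons, 24 of the 145 members had at least 10% of their 100-base words in a transcript of another gene, and 71 had none. Of the genes shown, *Zfp985* (1.73% of words shared) and *Zfp990* (3.60%) were nearly unique. Counts of *Zfp781* (92.4% of words shared), *Zfp966* (79.9%, with *Zfp968*), *Zfp993* (71.9%, with *Zfp991*), *Zfp991* (70.3%, with the pseudogene *Znf41-ps*) and *Zfp960* (68.3%, with *Zfp97*) are therefore uncertain, since a read in a shared stretch has no unique place. *Zfp784* shared 94.6% of its words with *Zfp865*, whose exons overlap its own on the opposite strand. The counting strand is not given in the sources used here, so reads in the part that overlaps, which is nearly all of *Zfp784*, cannot be assigned to either gene. *Zfp865* shared 25.2% of its words, and most of it is its own.

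A search of each encoded protein for the C2H2 finger spacing found at least 1 finger in 142 members (97.9%), with a median of 11 and at most 33. *Zfp703*, *Zfp781* and *Zfp839* had none. A KRAB-A box pattern was found in 94 members (64.8%), against 79 of 189 *Zfp1* to *Zfp599* genes that reached the same count (41.8%) and 111 of 21238 protein-coding genes without a *Zfp* symbol (0.523%). The members lay on 18 chromosomes, most of all chromosome 7 (32 members), chromosome 17 (22), chromosome 8 (16) and chromosome 4 (12). Of the 94 members with the KRAB pattern, 61 lay in clusters of 3 or more members whose neighboring starts were within 500 kb, against 14 of the 51 without it.

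Most members were expressed at low to moderate levels in tibia. Read depth on genes ranged from 50977777 to 70571655 counts per library, and levels are given as CPM (counts scaled to the library size) after TMM normalization, divided by the kilobases of exon where genes are compared with each other. The median member stood at a level of 2.49 CPM per kb, with quartiles of 1.10 and 4.55. Members with the KRAB pattern had a median level of 1.75 CPM per kb and those without it 4.15. Per length, the most abundant was *Zfp740* at 23.3 CPM per kb, followed by *Zfp869* (22.9), *Zfp706* (18.1), *Zfp692* (15.7), *Zfp830* (12.01) and *Zfp703* (11.5). *Zfp706*, a repressor of *Klf4* in embryonic stem cells, read 94.8, 91.1 and 86.2 CPM in Atrx-cKO libraries 1 to 3 and 90.7, 87.4 and 92.2 CPM in control libraries 1 to 3. The control values of this abundant member lay inside the Atrx-cKO range.

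*Zfp740* read 105, 124 and 128 CPM in Atrx-cKO and 121, 118 and 116 CPM in control. *Zfp869*, the highest per kb of exon among members with a KRAB pattern, read 33.4, 39.7 and 37.5 CPM in Atrx-cKO and 34.3, 36.8 and 37.0 CPM in control. In both genes the lowest library was an Atrx-cKO library and so was the highest. *Zfp703*, a corepressor of the NET family, read 40.8, 37.4 and 37.2 CPM against 40.1, 36.8 and 42.4 CPM. *Zfp692* ranged from 24.1 to 33.9 CPM in Atrx-cKO and from 29.6 to 32.3 CPM in control, and *Zfp830* from 16.5 to 20.4 CPM and from 18.7 to 19.8 CPM. For both, the low value came from Atrx-cKO replicate 3 and the other libraries lay close together.

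At the low end, total counts over the 6 libraries fell to 69 for *Zfp966* and 90 for *Zfp683* (the gene of Hobit, a transcription factor of tissue-resident lymphocytes), the members just inside the rule. Their levels ran from 0.135 to 0.273 CPM for *Zfp966* and from 0.0701 to 0.458 CPM for *Zfp683*. Just outside it stood *Zfp988* with 57 counts, 17, 14 and 13 in Atrx-cKO and 2, 9 and 2 in control. *Zfp988* lies in the chromosome 4 interval described below and was tested though not a member. Its log2 fold change was 1.75 (unadjusted p = 0.0228, edgeR quasi-likelihood test), from few counts and without overlap of the groups. *Zfp972* had 45 counts, 14, 5 and 11 in Atrx-cKO and 6, 6 and 3 in control. Of the 26 genes left out, 3 had no count in any library. A count of 0 allows up to 3 counts, which is 0.0425 to 0.0588 CPM depending on the library, and these limits cover counting error only. The remaining low members *Zfp993*, *Zfp977*, *Zfp781* and *Zfp612* lay between 0.0901 and 1.07 CPM. All 145 members passed the low-count filter of the fit.

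No member differed between genotypes after adjustment over all 20636 tested genes. The edgeR quasi-likelihood test with Benjamini-Hochberg adjustment called 0 of 145 members at an adjusted p under 0.05, with 0.992 as the lowest adjusted p among them, and DESeq2 also called 0, with 0.930 as its lowest. Over all tested genes 3 were called (0.0145%), and DESeq2 called 0.157% of those to which it gave an adjusted p. At an unadjusted p under 0.05 in edgeR, 4 members were higher in Atrx-cKO (*Zfp992*, *Zfp985*, *Zfp831* and *Zfp712*) and 0 were lower, where the background over all tested genes was 1.59% higher and 2.05% lower. These counts depended on single libraries, with 0 higher and 3 lower without control replicate 1 and 1 higher and 0 lower without Atrx-cKO replicate 3. Leaving out any other library gave 2 to 6 higher and 0 lower.

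Most of the differences were small as well as uncalled. They are differences in whole tibia, whose RNA includes that of cells without Cre. They do not give the size of a change within the osteoblast lineage. The median log2 fold change of the members, Atrx-cKO over control, was 0.0061, with quartiles of −0.061 and 0.10, and 75 of 145 were above 0. By library size alone the median was 0.077 with 113 above 0, where that of all tested genes was also 0.077, and without Atrx-cKO replicate 3 it was −0.036 with 59 above 0. The same median was 0.0067 over the 189 *Zfp1* to *Zfp599* genes and 0.0050 over all tested genes, whose quartiles were −0.12 and 0.12. The 95% confidence interval of the log2 fold change lay within ±1, a 2-fold change either way, for 131 of 145 members (90.3%), against 94.2% of *Zfp1* to *Zfp599* and 73.2% of all tested genes. It lay within ±0.5 for 98 members (67.6%), against 65.6% of *Zfp1* to *Zfp599* and 47.7% of all tested genes. Summed over the members, the CPM of the Atrx-cKO libraries was 2459, 2523 and 2624 and that of the controls 2492, 2576 and 2556, so the groups overlapped. The 14 members whose interval reached past ±1 included *Zfp641*, *Zfp990* and *Zfp991*, described below, and several of the lowest counts. They also included *Zfp985* (0.050 to 1.46) and *Zfp831* (0.0095 to 1.30), which had an unadjusted p under 0.05 in edgeR.

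**Figure D1:**
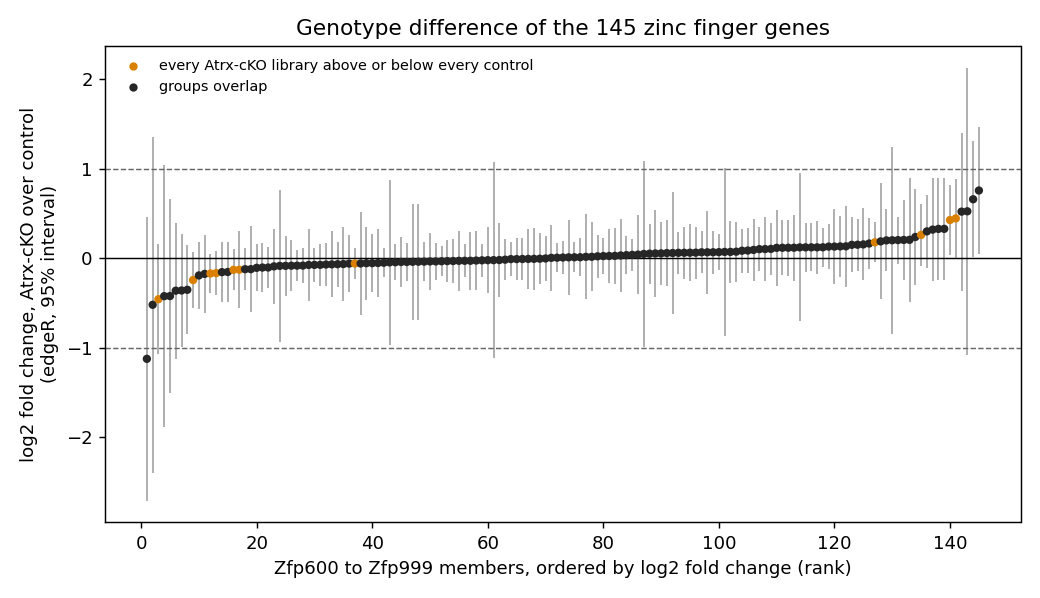
Log2 fold change of Atrx-cKO over control (points, edgeR) with its 95% interval (bars) for the 145 members, ordered by value, with orange points where the groups do not overlap and dashed lines at ±1. The points run from −1.13 (*Zfp641*) to 0.76 (*Zfp985*), and 141 of 145 intervals cross 0.

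**Figure D2:**
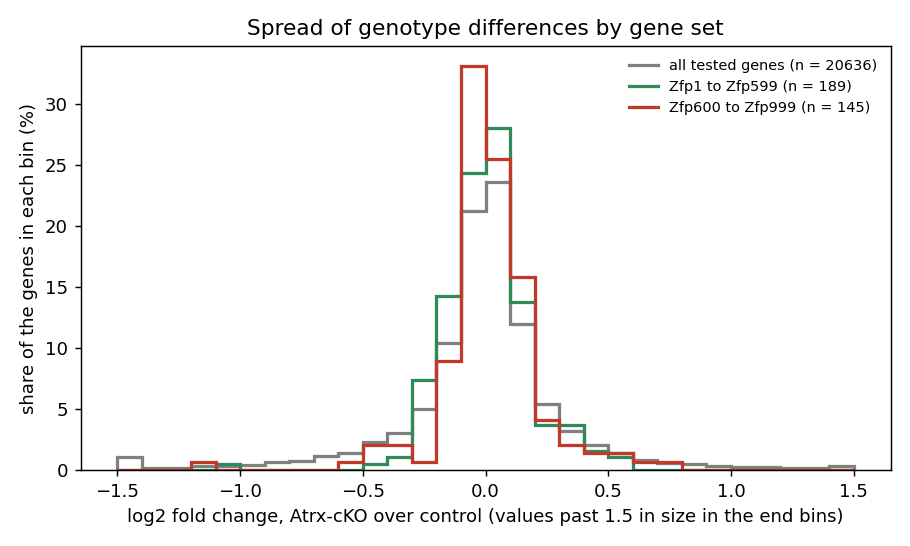
Share of genes (%) in each bin of log2 fold change, Atrx-cKO over control, for the 145 members, the 189 *Zfp1* to *Zfp599* genes and the 20636 tested genes. The 3 outlines peak around 0, with medians of 0.0061, 0.0067 and 0.0050.

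As a check of the labels, *Atrx* itself read 153, 166 and 171 CPM in Atrx-cKO and 174, 166 and 165 CPM in control (log2 fold change −0.05, SE 0.08, adjusted p = 0.992, edgeR quasi-likelihood test). These are counts over the whole gene in whole tibia, which include exons outside the floxed part and cells without Cre, so they do not check the deletion. *Cartpt*, a neuropeptide gene, read 192, 147 and 149 CPM in Atrx-cKO and 0, 0.0150 and 0.630 CPM in control. Its counts were 11232, 8368 and 8763 against 0, 1 and 30, with an adjusted p of 0.0191 in the edgeR quasi-likelihood test. The fit that called no member thus called a gene whose libraries separated by genotype, at a log2 fold change of 9.75. A call at that size does not show that changes as small as those of the members would be called. On simulated counts edgeR recovered 48 of 100 genes changed by a log2 of 1. The *Cartpt* call did not hold in every alternative fit. With a block for replicate number no gene was called at all, *Cartpt* included. The same was true on leaving out control replicate 2, or either of replicates 1 and 2 of the Atrx-cKO group. In those fits the absence of called members has no called gene to set beside it.

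Members with and without the KRAB pattern had medians on either side of 0. The 94 with the pattern had a median log2 fold change of 0.048 and 55 were above 0. The 51 without it had a median of −0.030 and 20 were above 0. The median over all members had an SD between replicate libraries of 0.042 on the log2 scale. That SD is not the error of either set's median or of the difference between the sets, which was not tested. Scaling by library size alone put both medians above 0, at 0.12 and 0.040, with that of the KRAB members still the higher. None of either kind was called by edgeR, beside 0.0145% of all tested genes, and DESeq2 called none. At an unadjusted p under 0.05 in edgeR, 3 and 1 were higher and 0 lower. Over all tested genes 1.59% were higher and 2.05% lower. Members in clusters of 3 or more had a median of 0.033 over 75 genes, and members with no other member within 500 kb had −0.023 over 52 genes.

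Clusters of members differed in how far their genes spread around 0. The largest, chr17:21383748-22867134, held 14 members with a median log2 fold change of 0.12, from −0.03 to 0.32, of which 11 were above 0. Its summed CPM was 147, 154 and 165 in Atrx-cKO and 138, 152 and 149 in control, so the groups overlapped. The next, chr7:127244274-127885996, held 9 members with a median of −0.057 and a summed CPM of 167, 171 and 170 against 177, 176 and 174, without overlap. Of its 9 members, 4 were above 0. Whether the summed groups overlapped depended on the scaling. By library size alone the chromosome 17 sums were 148, 159 and 170 in Atrx-cKO and 145, 143 and 139 in control, which did not overlap, and the chromosome 7 sums 168, 177 and 176 against 186, 166 and 163, which did. The medians moved with it, to 0.19 with 14 of 14 members above 0 for the chromosome 17 cluster and to 0.016 with 5 of 9 above 0 for the chromosome 7 cluster. Clusters of 6 members at chr17:32765496-33033402, chr4:147132038-147848366 and chr8:69209038-69791178 had medians of 0.023, 0.11 and −0.014, and of 0.10, 0.18 and 0.060 by library size alone. The chromosome 4 cluster was the widest, from −0.52 (*Zfp991*) to 0.76 (*Zfp985*). The fit called no member of these clusters, beside 0.0145% of all tested genes.

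Every Atrx-cKO library lay above every control for 4 members and below every control for 7. These 11 members are 7.59% of the 145, beside 8.31% of all tested genes (4.3% higher and 4.01% lower) and 9.52% of *Zfp1* to *Zfp599*. The share of members without overlap was thus near the background. The split depended on the scaling, since by library size alone 15 members lay above and 3 below, beside 7.1% and 2.26% of all tested genes. The lower ones were *Zfp637*, *Zfp647*, *Zfp951*, *Zfp771*, *Zfp606*, *Zfp866* and *Zfp937*.

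*Zfp992*, one of the chromosome 4 genes shown above, read 4.12, 4.36 and 5.11 CPM in Atrx-cKO and 3.07, 3.65 and 3.40 CPM in control. Its log2 fold change was 0.43 (SE 0.17), with an adjusted p of 0.992 in the edgeR quasi-likelihood test, and 28.6% of its words were shared, most with *Zfp991*. *Zfp712*, with a KRAB pattern and 20 finger patterns, read 4.21, 3.28 and 4.19 CPM against 2.98, 3.14 and 2.46 CPM, a log2 fold change of 0.44 (SE 0.19). In both genes the gap between the groups was narrower than the spread inside one of them. *Zfp821* read 17.2, 19.3 and 19.9 CPM against 16.1, 16.7 and 17.1 CPM (log2 fold change 0.18, SE 0.10), and *Zfp820*, in the large chromosome 17 cluster, 5.95, 5.66 and 6.28 CPM against 4.36, 5.37 and 5.21 CPM (0.26, SE 0.15). For these too the lowest Atrx-cKO library stood just above the highest control.

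Among the lower members, *Zfp637* read 13.9, 14.05 and 14.3 CPM in Atrx-cKO and 15.2, 16.1 and 16.2 CPM in control, a log2 fold change of −0.17 (SE 0.09). *Zfp647* read 5.34, 5.81 and 5.13 CPM against 6.08, 6.62 and 6.60 CPM (−0.25, SE 0.13). *Zfp951*, a low-count member, read 0.667, 0.928 and 0.934 CPM against 1.10, 1.32 and 1.05 CPM (−0.46, SE 0.26), with Atrx-cKO replicate 1 well below the rest. *Zfp771* had a log2 fold change of −0.17 (−0.097 without control replicate 3) and *Zfp606* of −0.13, and the groups of *Zfp606* nearly touched at 14.68 and 14.73 CPM. The adjusted p was 0.992 for each of these genes in the edgeR quasi-likelihood test.

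**Figure D3:**
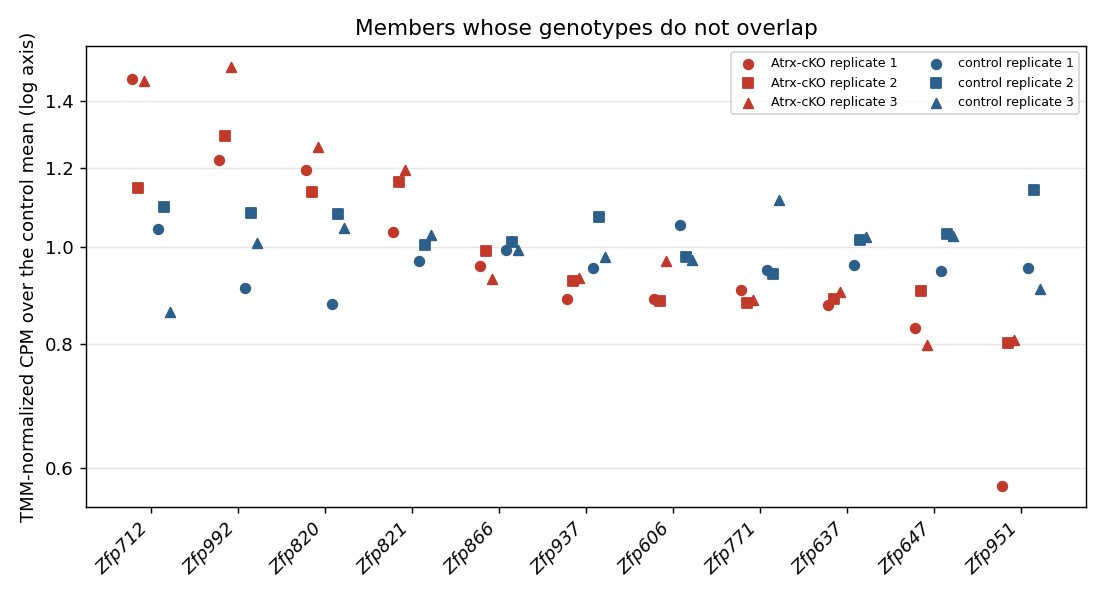
TMM-normalized CPM of each library divided by the control mean of the gene (log axis) for the 11 members whose genotypes do not overlap, with red for Atrx-cKO, blue for control and a marker shape per replicate number. *Zfp712* and *Zfp992* stand highest at log2 fold changes of 0.44 and 0.43, and *Zfp951* lowest at −0.46.

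The other genes with a low unadjusted p overlapped between genotypes. *Zfp985* read 3.83, 2.36 and 3.36 CPM in Atrx-cKO and 1.68, 2.61 and 1.34 CPM in control, the highest log2 fold change of all members at 0.76 (SE 0.30). Control replicate 2 lay above Atrx-cKO replicate 2. *Zfp831* read 3.49, 3.71 and 2.19 CPM against 1.96, 2.46 and 1.51 CPM (0.66, SE 0.28), and control replicate 2 lay above Atrx-cKO replicate 3. *Zfp950* read 37.6, 38.6 and 43.3 CPM against 31.6, 32.5 and 39.8 CPM (0.20, SE 0.11), with control replicate 3 among the Atrx-cKO libraries. The adjusted p was 0.992 for all 3 in the edgeR quasi-likelihood test.

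Members with a known part in silencing or in bone were examined by name, and edgeR called none of them, beside 0.0145% of all tested genes. *Zfp809*, a KRAB zinc finger gene that silences murine leukemia proviruses in embryonic stem cells, read 19.3, 18.0 and 16.4 CPM in Atrx-cKO and 20.9, 19.1 and 18.6 CPM in control (log2 fold change −0.12, SE 0.10). *Zfp932*, which represses endogenous retroviruses together with its neighbor *Gm15446*, read 15.1, 11.9 and 17.6 CPM against 10.3, 8.93 and 16.3 CPM (0.33, SE 0.25). In *Zfp932* the highest control library exceeded 2 of the 3 Atrx-cKO libraries, and its log2 fold change ranged from 0.16 without control replicate 2 to 0.61 without control replicate 3. *Zfp638*, which helps silence unintegrated retroviral DNA, read 73.3, 83.05 and 87.1 CPM against 84.1, 89.3 and 77.5 CPM (−0.04, SE 0.09).

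*Zfp827*, known for recruiting the NuRD complex to telomeres in cells that lengthen them without telomerase, read 18.6, 13.03 and 18.0 CPM in Atrx-cKO and 17.02, 18.2 and 17.4 CPM in control (−0.09, SE 0.14). Its one low library was Atrx-cKO replicate 2. *Zfp687*, whose human counterpart is mutated in a severe form of Paget disease of bone, read 40.6, 39.6 and 40.4 CPM against 43.3, 40.1 and 40.2 CPM (−0.04, SE 0.07). *Zfp644*, a partner of the H3K9 methyltransferases G9a and GLP, read 48.7, 43.2 and 51.4 CPM against 46.7, 43.4 and 46.7 CPM (0.07, SE 0.09). *Zfp652*, a repressor that works with CBFA2T3, had the most counts of all members and read 114, 119 and 129 CPM against 115, 138 and 136 CPM (−0.11, SE 0.10). *Zfp746*, the parkin substrate PARIS, *Zfp704*, *Zfp768* and *Zfp800* had log2 fold changes of −0.04, −0.09, −0.11 and −0.03. That of *Zfp768* was −0.013 without control replicate 3. In all of these the groups overlapped.

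The partners of the KRAB proteins and the H3K9me3 machinery were measured from a list of 26 genes, all of which were tested. edgeR called 0 of 26, beside 0.0145% of all tested genes. At an unadjusted p under 0.05 in edgeR, 0 were higher or lower, beside 1.59% higher and 2.05% lower of all tested genes. Their median log2 fold change was 0.06, with 17 above 0. The corepressor *Trim28* read 190, 185 and 163 CPM in Atrx-cKO and 189, 182 and 183 CPM in control, and the methyltransferase *Setdb1* 61.4, 62.5 and 56.5 CPM against 60.6, 61.3 and 59.4 CPM. *Daxx*, which forms a complex with ATRX, read 30.6, 31.6 and 30.1 CPM against 35.2, 35.7 and 29.2 CPM, the lowest value of the list at a log2 fold change of −0.11 (SE 0.10). *Suv39h2*, an H3K9 methyltransferase, was highest at 0.18 (SE 0.15). The groups did not overlap for 3 of the 26, all higher in Atrx-cKO, beside 4.3% of all tested genes. These were *Morc3* (72.2, 75.3 and 76.0 CPM against 70.4, 67.7 and 64.2 CPM), *Mphosph8* of the HUSH complex (33.7, 34.0 and 33.9 CPM against 29.7, 32.1 and 31.1 CPM) and the HP1 gene *Cbx1*, with log2 fold changes of 0.14, 0.13 and 0.04.

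A few members differed widely between mice of the same genotype. The SD of log2(CPM + 0.25) between libraries of 1 genotype, pooled over both genotypes, had a median of 0.141 over the members, 0.139 over *Zfp1* to *Zfp599* and 0.192 over all tested genes. Of the 16 members with the largest SD, 6 lay in a single interval on distal chromosome 4, chr4:145510759-147848366, which held 9 members in all. The interval was chosen after the values were seen, and it is given as a description with no test. The median SD of its 9 members was 0.384, against 0.139 for the other 136. Clusters of this region have expanded in mice and are known for the control of retrotransposons.

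**Figure D4:**
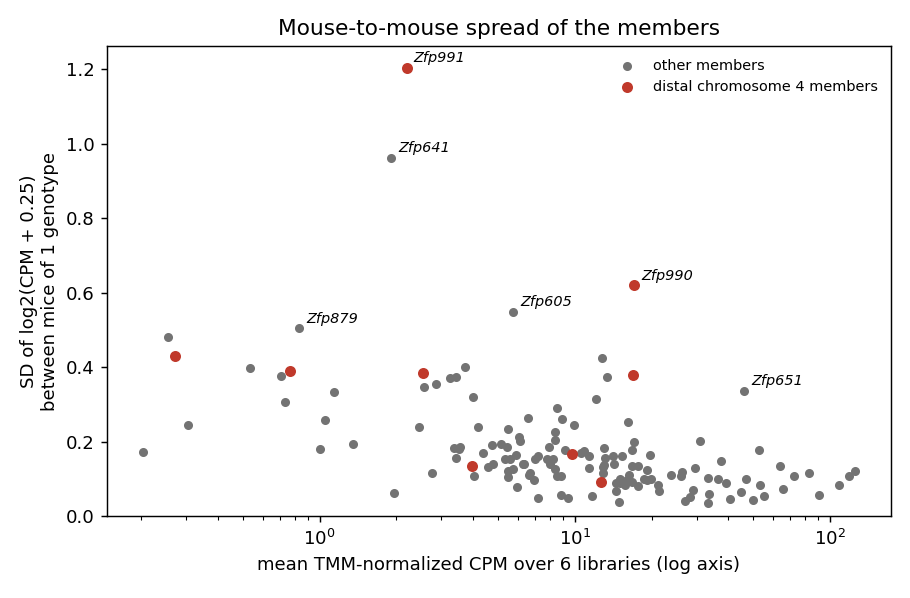
SD of log2(CPM + 0.25) between mice of 1 genotype against mean TMM-normalized CPM over 6 libraries (log axis), 1 point per member, with the 9 distal chromosome 4 members in red. *Zfp991* is highest at 1.20, followed by *Zfp641* at 0.96 and *Zfp990* at 0.62.

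*Zfp991* had the largest SD of all members. It read 0.753, 3.84 and 0.798 CPM in Atrx-cKO libraries 1 to 3 and 3.49, 0.600 and 3.68 CPM in control libraries 1 to 3, from counts of 44, 219 and 47 and of 199, 40 and 175. Atrx-cKO replicate 2 and control replicates 1 and 3 were thus high and the other libraries low, a difference that ran across the genotypes. The genetic background of the individual mice is not given in the sources used here. Its log2 fold change was −0.52 with an SE of 0.81, and it ranged from −1.74 without Atrx-cKO replicate 2 to −0.15 without Atrx-cKO replicate 1. The pseudogene *Znf41-ps*, with which it shares most words, read 0.513, 2.22 and 0.611 CPM against 2.40, 0.736 and 2.14 CPM, high in the same libraries. How reads divide between the pseudogene and *Zfp991* cannot be told from these counts.

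*Zfp990* read 23.8, 12.1 and 24.2 CPM in Atrx-cKO and 11.7, 21.7 and 8.49 CPM in control (log2 fold change 0.52, SE 0.38). *Zfp979* read 18.9, 13.6 and 23.9 CPM against 12.2, 19.5 and 13.3 CPM (0.33, SE 0.24). Leaving out 1 library took *Zfp990* from 0.25 (without control replicate 3) to 0.98 (without control replicate 2) and *Zfp979* from 0.11 (without Atrx-cKO replicate 3) to 0.56 (without control replicate 2). For both, Atrx-cKO replicates 1 and 3 and control replicate 2 were the high libraries, the ones in which *Zfp991* was low. In *Zfp985*, whose values stand above, the same libraries were the highest. *Zfp982* ranged from 0.424 to 1.10 CPM without that order.

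Of the 9 members in the interval, *Zfp933*, *Zfp992* and *Zfp984* varied least between mice. *Zfp933* had an SD of 0.093 and *Zfp984* of 0.167, and *Zfp992*, between *Zfp990* and *Zfp991*, had 0.136. The SD was 0.431 for *Zfp993*, 0.391 for *Zfp982* and 0.862 for *Znf41-ps*. *Zfp993*, with 71.9% of its words shared, most with *Zfp991*, had 12, 17 and 11 counts in Atrx-cKO and 28, 6 and 17 in control. Its lowest library was control replicate 2, as for *Zfp991*, at a depth of few counts. With 3 libraries per genotype, of which 2 of one genotype and 1 of the other were alike, these genes bear on the genotype comparison through wide intervals, from −2.40 to 1.36 on the log2 scale for *Zfp991* and from −0.36 to 1.40 for *Zfp990*.

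**Figure D5:**
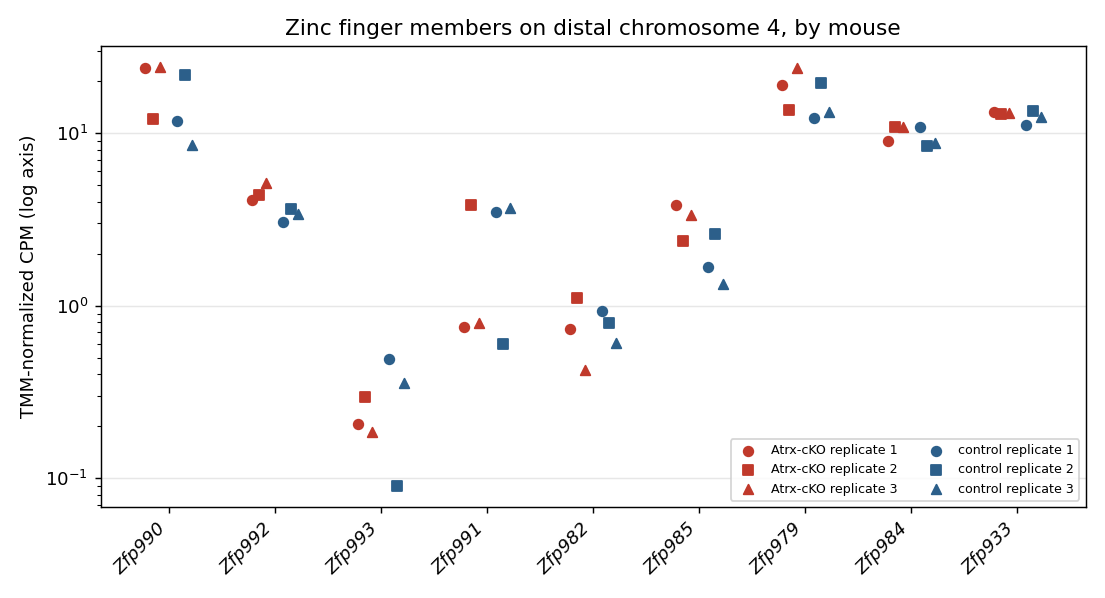
TMM-normalized CPM (log axis) of the 9 distal chromosome 4 members in each library, in genomic order, with red for Atrx-cKO, blue for control and a marker shape per replicate number. *Zfp991* splits into libraries at 3.49 to 3.84 CPM and at 0.600 to 0.798 CPM with both genotypes in each, while *Zfp933* stays level.

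Outside chromosome 4, *Zfp605* on chromosome 5 read 4.10, 8.28 and 4.28 CPM in Atrx-cKO and 5.35, 8.50 and 3.82 CPM in control (SD 0.55), so that replicate 2 of each genotype was high. *Zfp932*, which starts within 500 kb of it, was lowest within each genotype in those libraries, at 11.9 and 8.93 CPM.

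*Zfp641* held the lowest log2 fold change of all members, −1.13 (SE 0.68), and this rested on 1 library. It read 1.30, 1.33 and 0.951 CPM in Atrx-cKO and 0.701, 1.501 and 5.67 CPM in control, and without control replicate 3 its log2 fold change was 0.10. *Zfp651*, the mouse counterpart of human *ZBTB47*, read 40.0, 41.9 and 39.1 CPM against 37.6, 45.6 and 71.5 CPM, and its log2 fold change went from −0.35 to −0.06 without that library. Control replicate 3 also stood apart in skeletal muscle markers. The sum of the 5 muscle markers (*Acta1*, *Ckm*, *Myh4*, *Mylpf* and *Tnnt3*) was 1789, 911 and 556 CPM in Atrx-cKO and 507, 600 and 9868 CPM in control, with *Myh4* the most abundant and all 5 above 0 in every library. The part of muscle in the values of *Zfp641* and *Zfp651* was not tested.

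The labelled tissue was borne out by its markers, since 6 osteoblast and osteocyte genes summed to 62201, 62307 and 62555 CPM in Atrx-cKO and 57783, 98588 and 88542 CPM in control, most of it *Col1a1*. Osteoclast markers summed to 1929 to 2618 CPM in Atrx-cKO and 2193 to 3643 CPM in control, and chondrocyte markers to 734 to 1096 CPM and 1036 to 1550 CPM. Marrow was present in every library, with neutrophil markers at 7729 to 10653 CPM in Atrx-cKO and 6149 to 8942 CPM in control. Erythroid markers stood at 3639 to 4726 CPM and 2309 to 6013 CPM, and B cell markers at 116 to 162 CPM and 77.0 to 167 CPM. Adipocyte markers read 56.0 to 95.8 CPM and 63.1 to 91.3 CPM, and nerve markers 45.1 to 60.1 CPM and 43.3 to 61.4 CPM. None of the genes on these 9 lists was at 0 in every library. edgeR called none of them, beside 0.0145% of all tested genes. Their part in the members' values was not tested.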

How the data were processed

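Counts per gene from 3 Atrx-cKO and 3 control tibias were deposited by the authors as raw read counts, 1 table per library, in the form htseq-count writes. The study's methods give paired-end sequencing by a service provider. The labels describe strand-specific libraries with polyA selection but also name a TruSeq RNA kit, so the strand of the libraries is uncertain. The submitters' processing notes name GRCm38 and DESeq2. The aligner, the counting program and the counting strand are not given in the sources used here. Reads on no feature were 51.6% to 52.4% of each table, reads without a unique alignment 3.69% to 4.56% and ambiguous reads 0.644% to 0.701%, and these were left out of library sizes and tests. Genes with duplicated exons therefore lose reads.

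Groups and replicate numbers came from the sample labels. Names, gene types and coordinates were those of GENCODE M21 (GRCm38), in which 55141 of 55401 identifiers were found. Counts were fitted with edgeR 4.0.16 in R 4.3.3 (TMM factors, default filterByExpr, then glmQLFit and glmQLFTest with no term but genotype), with Benjamini-Hochberg adjustment over all 20636 tested genes, and genes were called at an adjusted p under 0.05. DESeq2 1.42.0 was the alternative test. The other alternatives were 3 scalings, no filter, a replicate block, leaving out each library, members with at least 600 counts and members with under 10% shared words. No exact permutation test was run, since its smallest p with 3 libraries per genotype is 0.1. Replicates differed beyond sampling noise (chi-square per degree of freedom of 15.8 to 137), and each counted as 1 sample.

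Proteins were translated from the annotated coding sequence of each gene, and searched for a C2H2 finger pattern and a KRAB-A box pattern. The KRAB pattern was widened after a first version missed known genes. Shared words are 100-base words of a gene's exons that occur in another gene's transcripts.

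The members and lists were chosen with earlier results of these data known. Genes named were the members called, the 10 with the lowest unadjusted p, up to 5 in each direction without overlap, the 6 highest per kb and the 6 lowest in counts, those at the count threshold, 14 with a characterised role, the largest clusters, a list of 26 cofactors and 9 lists of cell type markers. *Zfp866*, *Zfp937*, *Zfp839*, *Zfp784*, *Zfp865*, *Zfp960*, *Znf41-ps*, *Zfp641*, *Zfp651*, *Zfp605* and the distal chromosome 4 genes outside the rule were chosen after their values were seen. On counts simulated for the 20636 genes with 200 changed, edgeR recovered 48 of 100 genes changed by a log2 of 1 and 82 of 100 changed by 2, with 8 false calls. DESeq2 recovered 61 and 88 of 100, with 49 false calls.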

Additional observations from a re-analysis of the deposited data

How the results depend on the processing

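The number of members called was 0 under every alternative, including those in which no gene at all was called. Scaling by library size alone moved the median of the members to 0.077, with 113 above 0, and that of all tested genes to 0.077 as well, and 15 members then lay above and 3 below without overlap, beside 7.1% and 2.26% of all tested genes under that scaling. At an unadjusted p under 0.05, DESeq2 gave 1 lower member, and the fit without a filter 2 higher and 2 lower. Leaving out 1 library at a time gave 0 to 6 higher and 0 to 3 lower members and medians from −0.036 to 0.024. The 0 higher and 3 lower came without control replicate 1 (lowest adjusted p 0.398, edgeR), and the median of −0.036 without Atrx-cKO replicate 3. Replicate numbers did not pair the libraries (correlations of deviations −0.0257, 0.0598 and −0.0693), and with the replicate block 3 members were higher, the median was 0.0045 and no gene was called among all those tested.

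Of 492 log2 fold changes recomputed for the 41 named members, 452 kept their sign and side of the threshold and 40 changed sign. With library size alone the new values were 0.040 (*Zfp692*), 0.068 (*Zfp830*), 0.025 (*Zfp703*), 0.049 (*Zfp966*), 0.034 (*Zfp687*), 0.029 (*Zfp638*), 0.032 (*Zfp746*) and 0.037 (*Zfp800*). Leaving out 1 library gave ranges across 0 of −0.049 to 0.090 (*Zfp740*), −0.034 to 0.098 (*Zfp869*), −0.025 to 0.042 (*Zfp706*), −0.11 to 0.11 (*Zfp692*), −0.065 to 0.087 (*Zfp830*), −0.26 to 0.21 (*Zfp966*), −0.88 to 0.085 (*Zfp993*), −0.23 to 0.22 (*Zfp977*), −0.15 to 0.53 (*Zfp781*), −0.15 to 0.51 (*Zfp612*), −0.17 to 0.037 (*Zfp704*), −0.18 to 0.048 (*Zfp827*), −0.066 to 0.0024 (*Zfp687*), −0.11 to 0.024 (*Zfp638*), −0.12 to 0.0080 (*Zfp746*), −0.13 to 0.018 (*Zfp800*), −1.57 to 0.098 (*Zfp641*) and −0.50 to 0.27 (*Zfp605*). When 1 library was left out, 13 others kept their sign but moved by over 1.5 times. Beside those whose ranges stand in the report, these ran from 0.0082 to 0.12 (*Zfp644*), −0.53 to −0.058 (*Zfp651*), −0.18 to −0.056 (*Zfp652*), 0.088 to 0.98 (*Zfp683*), −0.10 to −0.011 (*Zfp703*), −0.16 to −0.013 (*Zfp768*), −0.21 to −0.097 (*Zfp771*), −0.18 to −0.069 (*Zfp809*) and 0.17 to 0.32 (*Zfp820*). The cause was not tested. *Zfp966*, the member with the fewest counts (69), had a 95% interval from −1.12 to 1.07. Intervals were wider for *Zfp641* with 618 counts (−2.71 to 0.46) and *Zfp991* with 724 counts (−2.40 to 1.36). Duplicated fingers limit how reads are assigned.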
